A study of Mus musculus with 2 samples.

Results

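Genes for 9 sensors of foreign or misplaced nucleic acid, or their relatives, were followed in donor-derived macrophages and monocytes of the mouse lung: Zbp1, Aim2 and the Ifi200-family genes Ifi202b, Ifi203, Ifi204, Ifi205, Ifi207, Ifi209 and Ifi211. They were taken by symbol, and each of the 9 names matched 1 of the 22597 genes counted. Irradiated CD45.1+CD45.2+ IM-DTR hosts had received CD45.1-CD45.2+ bone marrow that was either LyzM-Cre Tgfbr2 fl/fl (the Tgfbr2-KO pool) or Tgfbr2 fl/fl alone (the control pool). All mice of both groups got 50 ng of diphtheria toxin 10 days before sacrifice, which in IM-DTR mice depletes resident interstitial macrophages. LyzM-Cre is driven by the lysozyme 2 gene and acts in monocytes, macrophages and neutrophils, and the host keeps its own cells outside the donor gate. Donor-type lung cells (CD45.1-CD45.2+) that were negative for Ly6G and SiglecF, positive for CD11b and CD64 and low in side scatter were sorted from 5 mice pooled per genotype. Each pool got 1 hashtag antibody, and both pools went into 1 droplet-based 3′ single-cell library. The sources used here do not give mouse age, sex or the strain of the marrow.

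There was 1 pool per genotype and no replicate, so no test was made and no p-value is given. Genotype, hashtag and sort cannot be told apart. After filtering, 2674 Tgfbr2-KO cells with 30729204 unique molecular identifiers (UMIs) and 1896 control cells with 16298452 UMIs remained, with medians of 10277.5 and 7785 UMIs per cell. Levels are UMIs summed over cells per 1000000 gene UMIs (UPM). Intervals in parentheses are exact 95% intervals, which cover counting error only and leave out differences between mice. Tgfbr2 itself stood at 195 UPM in the Tgfbr2-KO pool and 215 UPM in the control pool. Since 3′ tags can lie outside the deleted exon, which the sources used here do not name, this does not check the deletion. The macrophage gene C1qa, which was not a marker of the sort, stood at 3978 UPM in Tgfbr2-KO and 4629 UPM in control cells.

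Zbp1 encodes a receptor for left-handed Z-form RNA and DNA that passes its signal to the kinase RIPK3, which can end in necroptosis through MLKL or in apoptosis through caspase-8. Aim2 encodes the cytosolic receptor for double-stranded DNA that nucleates an inflammasome with the adaptor ASC (Pycard) and caspase-1. Aim2 and the Ifi200 genes form the PYHIN family, whose proteins join a pyrin domain to DNA-binding HIN domains, and much of the mouse family is induced by interferons. Ifi204 is commonly treated as the mouse counterpart of human IFI16. Ifi205 has been linked in mouse macrophages to expression of the adaptor ASC, and Ifi207 in mouse cells to the adaptor STING. Ifi202b encodes a protein without a pyrin domain that in mice opposes AIM2.

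Aim2 and the Ifi200 genes lie side by side on mouse chromosome 1, where 13 genes of the matrix span 682 kb from 173349547 to 174031755 (RefSeq, GRCm38.p6). Beside the 8 members there, these are Mndal, Ifi206, Ifi208, Ifi213 and Ifi214. Zbp1 lies apart, on chromosome 2 from 173206612 to 173218959. Genes of such a cluster are related copies. Reads that match several copies could be lost or split in the authors' counting, so the level of each copy is uncertain to that extent.

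RefSeq promoter entries of 300 bases were found for 7 of the 9 members, and none for Zbp1 and Ifi204. They were searched on both strands for a core of the interferon-stimulated response element (ISRE), which is GAAA, any 2 bases and GAAA again. That core was in 3.44% of all 32851 promoter entries (1131). It was in the promoters of 4 of the 7 members (Ifi203, Ifi205, Ifi207 and Ifi211) and of 5 of the 5 other genes of the locus. Another 3 patterns were searched: TTCNNNGAA, the core of the gamma-activated site (8.30% of all entries), GAAANGAAA (3.17%), and TTC and GAA with any 4 bases between them (6.95%). Among members, TTCNNNGAA was found once, in Ifi202b. GAAANGAAA was in no entry of the locus, and TTC and GAA at 4 bases were in Ifi203, Ifi205 and Ifi211, in no case overlapping an ISRE core. Windows of 60 bases are shown because neighbouring copies differ there, and they were placed after the matches had been seen. They cover positions -80 to -21, where -1 is the base before the RefSeq start, except for Ifi205, at -160 to -101. The Ifi205 promoter held a further match after the start. Sequences are RefSeq, GRCm38.p6, 5′ to 3′ on the gene's strand, and capitals mark the ISRE core.
Ifi205 (chr1:174031856-174031915, minus strand): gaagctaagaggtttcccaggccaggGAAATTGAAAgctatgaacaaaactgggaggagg
Ifi211 (chr1:173913067-173913126, minus strand): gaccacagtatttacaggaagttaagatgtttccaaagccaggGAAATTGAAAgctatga
Ifi207 (chr1:173741830-173741889, minus strand): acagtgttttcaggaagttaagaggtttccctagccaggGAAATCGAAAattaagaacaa
Ifi203 (chr1:173942513-173942572, minus strand): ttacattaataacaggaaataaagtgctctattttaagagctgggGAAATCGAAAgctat
Ifi214 (chr1:173535978-173536037, minus strand): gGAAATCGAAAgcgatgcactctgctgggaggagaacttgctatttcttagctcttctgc
Ifi209 (chr1:173630779-173630838, plus strand): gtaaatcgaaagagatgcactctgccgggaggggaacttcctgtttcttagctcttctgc
Aim2 (chr1:173420524-173420583, plus strand): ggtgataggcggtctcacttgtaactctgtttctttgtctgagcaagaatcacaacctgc

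The promoters of Ifi209 and Ifi214 shared 95.3% of aligned positions, yet the core was matched in Ifi214 and not in Ifi209. The Ifi203 window is from the more downstream of its 2 entries, and the other entry held no ISRE core. Ifi203 and Mndal shared 90.7% and Ifi207 and Ifi211 shared 85.9%. A match is a run of letters and does not show binding, and a missing match says only that these letters are not in this window.

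Across all cells, the sensors separated into genes that were much higher in Tgfbr2-KO cells, genes that were moderately higher, and genes less than 1.5-fold higher or not higher. Zbp1 had 138 UPM (134 to 142) in the Tgfbr2-KO pool and 16.7 UPM (14.8 to 18.8) in the control pool, 8.26-fold higher (7.30 to 9.37). Ifi205 had 97.9 UPM (94.4 to 101) in Tgfbr2-KO and 10.1 UPM (8.64 to 11.8) in control cells, 9.67-fold higher (8.26 to 11.4). Both intervals of levels stood far apart. By fold, Ifi205 ranked 30 and Zbp1 34 among 7470 counted genes, where a counted gene had 100 UMIs or more in the pools together and reached 10 UPM in either.

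Ifi211 had 105 UPM in Tgfbr2-KO and 34.6 UPM in control cells, 3.04-fold higher. Ifi209 had 58.9 UPM in Tgfbr2-KO and 21.3 UPM in control cells, 2.77-fold higher. Ifi204 had 160 UPM in Tgfbr2-KO and 82.2 UPM in control cells, 1.95-fold higher. These 3 genes formed a middle group, with level intervals of the pools that did not overlap.

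Ifi203 had 123 UPM (119 to 127) in Tgfbr2-KO and 86.1 UPM (81.7 to 90.8) in control cells, a log2 ratio of 0.51. It was thus 1.42-fold higher (1.34 to 1.52), under 1.5-fold but with level intervals that did not overlap. Aim2 had 48.0 UPM (45.6 to 50.5) in Tgfbr2-KO and 47.4 UPM (44.1 to 50.8) in control cells, a ratio of 1.01 (0.928 to 1.11). The DNA receptor of the inflammasome was thus level between the pools within counting error. Ifi207 had 516 UPM (508 to 524) in Tgfbr2-KO and 637 UPM (625 to 649) in control cells, a log2 ratio of -0.30.

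Of the 9 members, 8 were counted, and 5 of them (Zbp1, Ifi204, Ifi205, Ifi209 and Ifi211) were at least 1.5-fold higher in the Tgfbr2-KO pool, against 10.4% of all counted genes (776 of 7470). None was at least 1.5-fold lower, against 6.81% (509) of counted genes. The median log2 ratio of the 8 was 1.22, beside 0.09 for all counted genes. Ifi202b was not counted. It had 21 UMIs in 21 Tgfbr2-KO cells and 44 UMIs in 13 control cells, and 31 of those 44 lay in 1 control cell. Without the top cell of each pool, 20 and 13 UMIs were left and the ratio was 0.816 (0.386 to 1.79), so its pooled value rests on that cell.

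**Figure D1:**
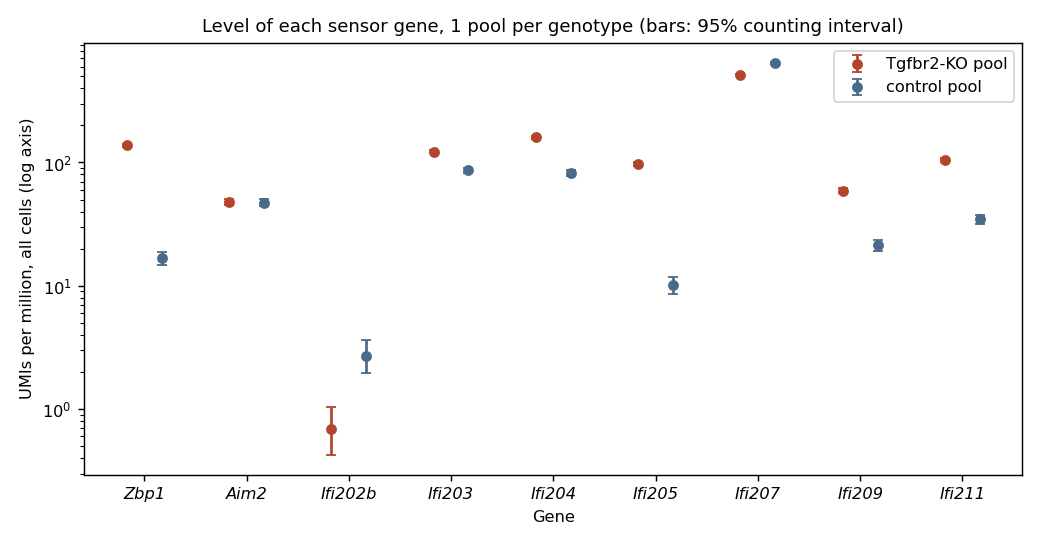
UMIs per 1000000 over all cells for each of the 9 genes, Tgfbr2-KO pool left and control pool right, on a log axis, with 95% counting intervals. Zbp1 (138 against 16.7) and Ifi205 (97.9 against 10.1) lie furthest apart, Aim2 is level (48.0 against 47.4), and Ifi207 is lower in the Tgfbr2-KO pool (516 against 637).

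Cells were then assigned to gated states by marker genes that are no members. The activated state has at least 10 UMIs per 10000 of the interferon- and inflammation-linked genes Cxcl9, Ly6i, Ly6a, Saa3 and Ass1. It held 778 Tgfbr2-KO cells (29.1%) and 13 control cells (0.686%). The C1q-positive macrophages outside it were divided by Fn1 and by Mrc1, the mannose receptor CD206, at 5 UMIs per 10000 each. Mrc1-high cells numbered 840 in the Tgfbr2-KO and 728 in the control pool, Mrc1-low cells 628 and 804, and Fn1-high cells 35 and 153. Proliferating cells numbered 131 in the Tgfbr2-KO and 48 in the control pool. Cells low in C1q with classical monocyte genes such as Ly6c2 and Ccr2 numbered 151 in the Tgfbr2-KO and 57 in the control pool. The other C1q-low cells numbered 92 and 83, with median UMIs of 10205 in Tgfbr2-KO and 3297 in control cells. Cells with patrolling monocyte genes (10 and 7) and structural genes (9 and 3) were too few to compare.

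The activated state carried most of the Zbp1 and Ifi205 of the Tgfbr2-KO pool. It held 37.3% of all UMIs of that pool but 71.3% of its Zbp1, 79.6% of its Ifi205, 63.0% of its Ifi211 and 56.2% of its Ifi209. For Ifi204 and Ifi203 the shares were 48.6% and 45.5%. For Aim2 the share was 36.3%, close to that of all UMIs. For Ifi207 it was 22.1%, while Mrc1-high cells, with 26.0% of all UMIs, held 48.5% of the Ifi207.

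**Figure D2:**
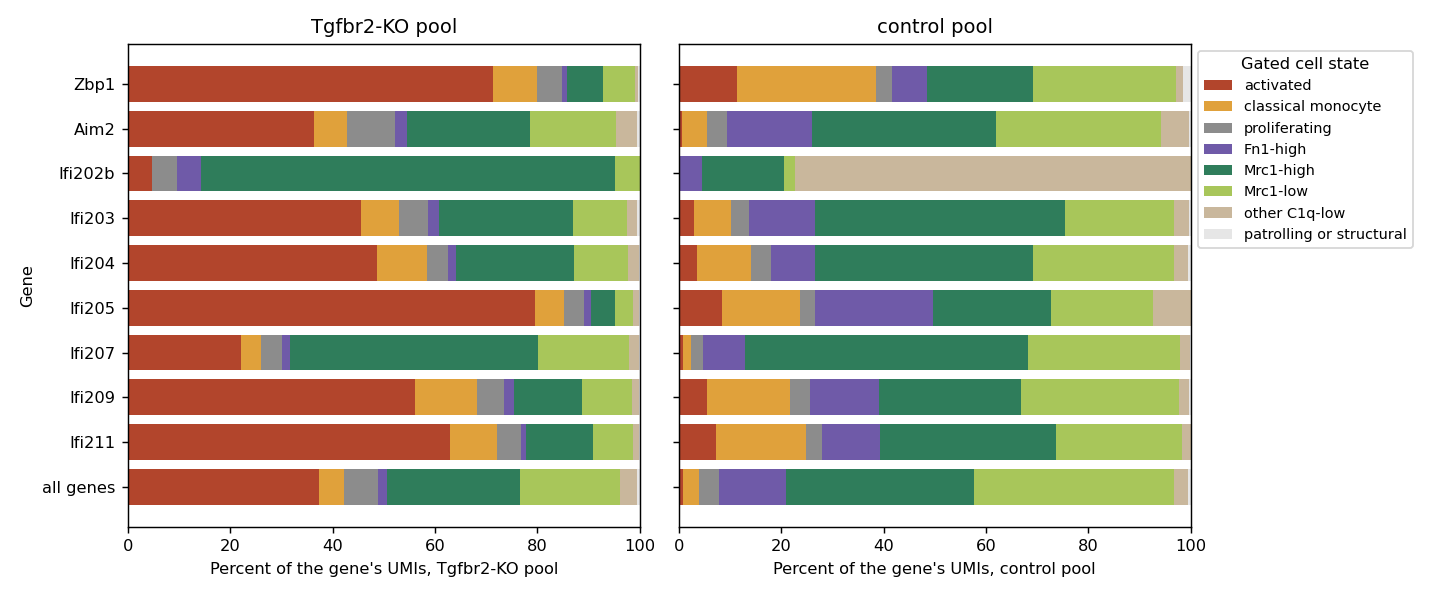
Share of each gene's UMIs by gated cell state, in the Tgfbr2-KO pool (left panel) and the control pool (right panel), with all genes in the last row. In the Tgfbr2-KO pool the activated state holds 79.6% of Ifi205 and 22.1% of Ifi207, and in the control pool 77.3% of the few Ifi202b UMIs come from other C1q-low cells, 31 of them from 1 cell.

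Zbp1 was highest in activated and classical monocyte-gene cells and lower in the other macrophages. In the activated state it stood at 263 UPM (254 to 273) in Tgfbr2-KO cells and 244 UPM (166 to 346) in the 13 control cells. These intervals overlapped. Of the 31 Zbp1 UMIs of the 13 control cells, however, 10 lay in 1 cell, which a counting interval does not allow for. So few cells do not settle whether the levels were alike. In C1q-low cells with classical monocyte genes it stood at 248 UPM (224 to 275) in Tgfbr2-KO and 149 UPM (117 to 187) in control cells, 1.67-fold higher (1.30 to 2.17). In proliferating cells it stood at 96.3 UPM (83.5 to 111) in Tgfbr2-KO and 12.3 UPM (5.31 to 24.2) in control cells.

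In Mrc1-high macrophages Zbp1 had 37.8 UPM (33.7 to 42.4) in Tgfbr2-KO and 9.37 UPM (7.08 to 12.2) in control cells, 4.04-fold higher (3.03 to 5.47). In Mrc1-low macrophages it had 43.7 UPM (38.6 to 49.4) in Tgfbr2-KO and 11.9 UPM (9.38 to 14.9) in control cells, 3.67-fold higher (2.84 to 4.81). Both macrophage states therefore showed the difference outside the activated gate, at levels well below that of activated Tgfbr2-KO cells.

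Ifi205 was also highest in activated Tgfbr2-KO cells. It stood at 209 UPM (200 to 217) in activated Tgfbr2-KO cells and 110 UPM (60.2 to 185) in the 13 activated control cells. In classical monocyte-gene cells it stood at 113 UPM in Tgfbr2-KO and 50.3 UPM in control cells, 2.26-fold higher (1.48 to 3.59). In Mrc1-high cells it had 17.5 UPM in Tgfbr2-KO and 6.36 UPM in control cells, 2.76-fold higher (1.92 to 4.06). In Mrc1-low cells it had 17.8 UPM in Tgfbr2-KO and 5.17 UPM in control cells, 3.44-fold higher (2.31 to 5.25). In the few Fn1-high cells it had 77.9 UPM (56.4 to 105) in Tgfbr2-KO and 17.8 UPM (12.6 to 24.4) in control cells.

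In the Tgfbr2-KO pool Ifi204, Ifi209 and Ifi211 were highest in classical monocyte-gene cells, and there they differed little from the control pool. Ifi211 had 199 UPM (177 to 223) in Tgfbr2-KO and 199 UPM (162 to 242) in control cells of that gate. Ifi209 had 145 UPM (126 to 166) in Tgfbr2-KO and 113 UPM (85.0 to 146) in control cells, and Ifi204 had 322 UPM (294 to 352) and 285 UPM (240 to 336). The intervals overlapped for each of the 3 genes. Cells of this gate also held UMIs of genes listed as markers of other types. The 6 neutrophil markers summed to 801 UPM in Tgfbr2-KO and 105 UPM in control cells, the 6 dendritic cell markers to 265 and 876 UPM, and the 6 alveolar macrophage markers to 211 and 1110 UPM. Their part in the levels of this gate was not tested.

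In macrophages these genes did differ. Ifi209 had 30.3 UPM in Tgfbr2-KO and 16.1 UPM in control cells of the Mrc1-high state, 1.89-fold higher (1.48 to 2.42). Ifi211 had 53.1 UPM in Tgfbr2-KO and 32.5 UPM in control cells of that state, 1.64-fold higher (1.38 to 1.95), and 1.95-fold higher (1.58 to 2.42) in Mrc1-low cells. Ifi204 had 142 UPM in Tgfbr2-KO and 95.9 UPM in control Mrc1-high cells, 1.48-fold higher (1.34 to 1.64), just under the threshold, and was 1.51-fold higher (1.32 to 1.73) in Mrc1-low cells, just over it. In the activated state Ifi204, Ifi209 and Ifi211 stood at 209, 88.7 and 178 UPM in Tgfbr2-KO cells, against 370, 149 and 322 UPM in the 13 control cells. The monocyte gene Ly6c2 stood at 508 UPM in activated Tgfbr2-KO and 1313 UPM in activated control cells. The part of monocyte-like cells in these levels was not tested.

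Ifi207 was a gene of the Mrc1-high state in either genotype. It had 963 UPM (941 to 984) in Tgfbr2-KO and 964 UPM (939 to 989) in control Mrc1-high cells. In Mrc1-low cells it had 474 UPM (457 to 492) in Tgfbr2-KO and 482 UPM (465 to 499) in control cells. Within both of these states the pools were level, with ratios of 0.999 (0.965 to 1.03) and 0.985 (0.936 to 1.04). In other C1q-low cells it had 291 UPM (260 to 326) in Tgfbr2-KO and 455 UPM (395 to 522) in control cells, a ratio of 0.640 (0.534 to 0.768). In the activated state it had 305 UPM (295 to 315) in Tgfbr2-KO cells and 613 UPM (485 to 765) in the 13 control cells, a ratio of 0.497 (0.397 to 0.630). Ifi207 was thus lower in Tgfbr2-KO cells of both gates, and the part of cell mix in this was not tested. Over all cells without the activated state the pools stood at 642 UPM in Tgfbr2-KO and 637 UPM in control cells. The lower Ifi207 of the whole Tgfbr2-KO pool was thus not seen once the activated cells were left out.

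Aim2, the inflammasome receptor, differed little between the pools in Mrc1-high and Mrc1-low macrophages. It had 44.1 UPM (39.6 to 49.0) in Tgfbr2-KO and 46.5 UPM (41.2 to 52.3) in control Mrc1-high cells. In Mrc1-low cells it had 41.5 UPM in Tgfbr2-KO and 39.0 UPM in control cells, and in activated Tgfbr2-KO cells 46.7 UPM (42.9 to 50.9). Its ratio between the pools was 0.948 (0.808 to 1.11) in Mrc1-high and 1.07 (0.890 to 1.28) in Mrc1-low cells. In other C1q-low cells it had 58.3 UPM (44.6 to 74.9) in Tgfbr2-KO and 93.3 UPM (67.2 to 126) in control cells, a ratio of 0.625 (0.415 to 0.949). Of the 42 control UMIs there, 8 lay in 1 cell, which a counting interval does not allow for. The ratio of this state without that cell was not computed.

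Ifi203 differed little in Mrc1-high cells, with 124 UPM (116 to 132) in Tgfbr2-KO and 115 UPM (106 to 124) in control cells, a ratio of 1.08 (0.977 to 1.19). Of the 686 control UMIs there, 33 lay in 1 cell. With gate thresholds halved, its log2 ratio in this state moved from 0.11 to 0.31. In Mrc1-low cells it had 66.0 UPM (59.7 to 72.9) in Tgfbr2-KO and 47.0 UPM (41.8 to 52.6) in control cells, 1.40-fold higher (1.21 to 1.64). Ifi202b reached 2.13 UPM (17 UMIs) in Tgfbr2-KO and 1.17 UPM (7 UMIs) in control Mrc1-high cells, a ratio of 1.82 (0.717 to 5.19) that includes no difference.

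**Figure D3:**
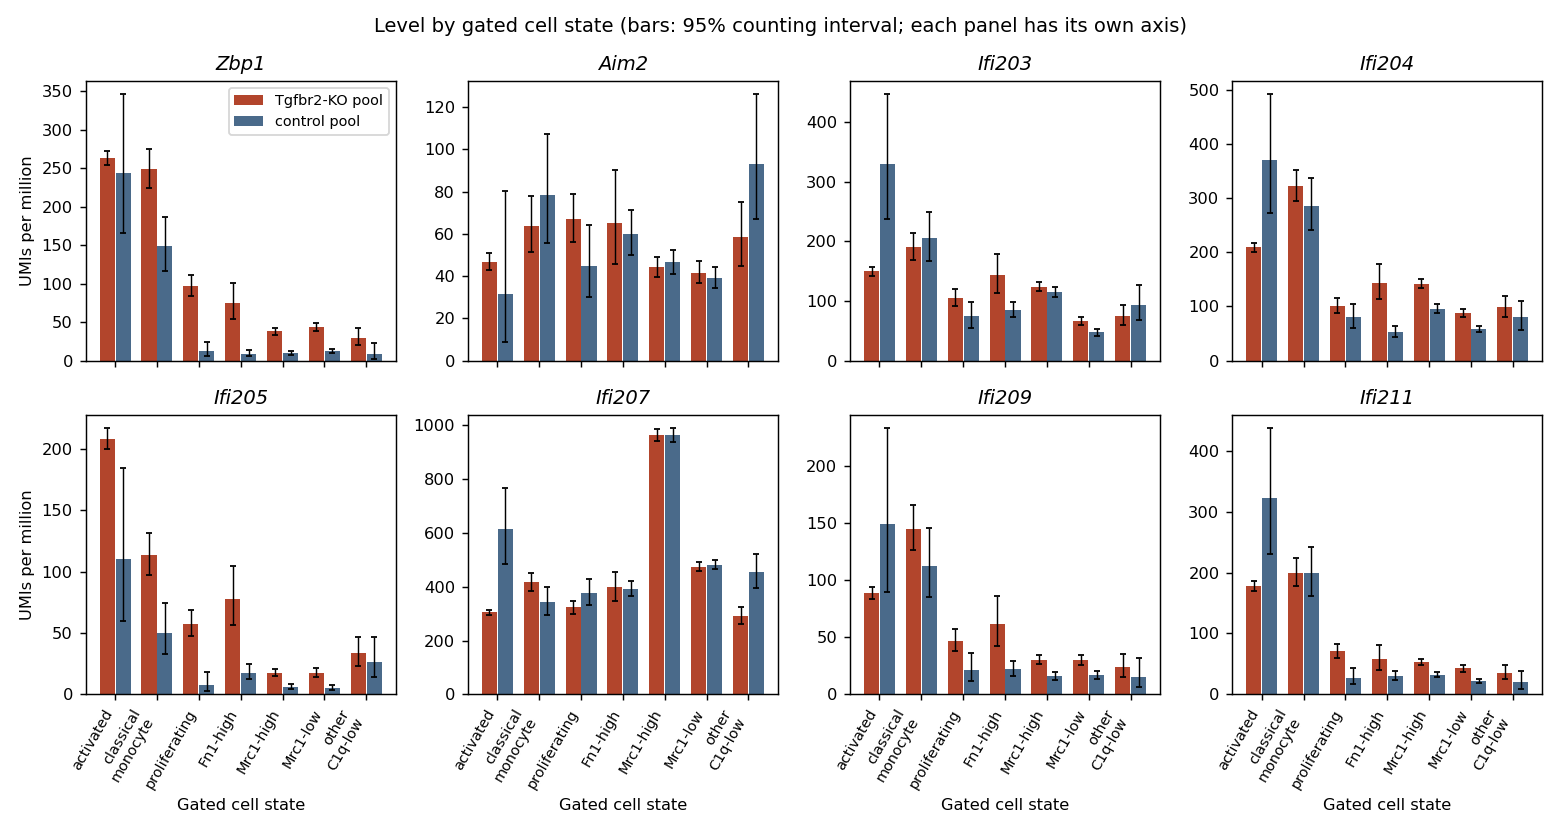
UMIs per 1000000 of the 8 counted genes in 7 gated states, Tgfbr2-KO bars left and control bars right, with 95% counting intervals and a separate axis for each gene. Zbp1 and Ifi205 peak in activated Tgfbr2-KO cells (263 and 209), Ifi207 peaks in Mrc1-high cells of both pools (963 and 964), and the activated control bars rest on 13 cells.

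Of the 8 counted members, 5 were at least 1.5-fold higher in Tgfbr2-KO cells without the activated state, against 6.72% of counted genes. In Mrc1-high cells 4 were (Zbp1, Ifi205, Ifi209 and Ifi211), against 6.43%, and in Mrc1-low cells 5 were, with Ifi204 in addition, against 5.73%. In classical monocyte-gene cells 2 were (Zbp1 and Ifi205), against 10.6%. In other C1q-low cells only Aim2, Ifi203, Ifi204 and Ifi207 were counted. Of these 4, 0 were at least 1.5-fold higher, against 16.1% of counted genes. Aim2 and Ifi207 (2) were at least 1.5-fold lower, against 22.3%. The median log2 ratio of the 4 was -0.48, and Ifi204 stood at a ratio of 1.23. The other members had too few UMIs there to be counted. Among them Zbp1 had 31 UMIs in Tgfbr2-KO and 4 UMIs in control cells, 3.33-fold higher. Ifi211, Ifi209 and Ifi205 stood at ratios of 1.77, 1.54 and 1.25, with intervals that include no difference. Ifi202b had 0 UMIs in Tgfbr2-KO and 34 UMIs in control cells, 31 of them in 1 cell. The Tgfbr2-KO cells of this state were much deeper than its control cells, and its markers of other cell types differed too. Neutrophil markers summed to 1244 UPM in Tgfbr2-KO and 304 UPM in control cells, and T or NK markers to 62.1 and 0 UPM. Dendritic cell markers summed to 30.6 and 156 UPM, and alveolar macrophage markers to 8.60 and 209 UPM, with Car4, Fabp1 and Marco at 0 in both pools. The part of depth and of cell mix in the ratios of this state was not tested. Zbp1 and Ifi205 in Mrc1-high cells, and Ifi205 in Mrc1-low cells and in all cells without the activated state, were counted through the Tgfbr2-KO level alone, so these counts are a description only. Without the activated state the folds were 4.23 for Zbp1, 3.42 for Ifi205, 2.03 for Ifi209, 1.92 for Ifi211 and 1.64 for Ifi204, so each was smaller than over all cells. With the states of the Tgfbr2-KO pool weighted as in the control pool, Zbp1 was 3.32-fold and Ifi205 3.16-fold higher, and Aim2 and Ifi207 stood at ratios of 1.01 and 0.986.

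Macrophages below the activated gate can still carry some UMIs of its genes. When only C1q-positive, non-proliferating macrophages with no UMI at all of those 5 genes were taken, 1039 Tgfbr2-KO and 1459 control cells were left, with medians of 7710 and 7548 UMIs. In them 2 members (Zbp1 and Ifi209) of 7 counted were at least 1.5-fold higher, against 4.24% of counted genes. Zbp1 was counted there through the Tgfbr2-KO level alone, so this count too is only a description. Zbp1 had 23.7 UPM in Tgfbr2-KO and 9.15 UPM in control cells, 2.59-fold higher (2.05 to 3.30). Ifi209 was 1.71-fold higher (1.40 to 2.07). Ifi211 at 1.49-fold (1.27 to 1.74), Ifi204 at 1.42-fold (1.30 to 1.56) and Ifi203 at 1.30-fold (1.18 to 1.42) were under 1.5-fold. Their intervals did not include equal levels, whereas Aim2 stood at a ratio of 0.960 (0.839 to 1.10). Ifi205 had 8.75 UPM in Tgfbr2-KO and 6.32 UPM in control cells, a ratio of 1.38 (0.993 to 1.93), so its difference was no longer beyond counting error. Ifi207 stood at 860 UPM in Tgfbr2-KO and 687 UPM in control cells, and 58.6% of these Tgfbr2-KO cells and 44.6% of these control cells were Mrc1-high. This set was chosen after the data had been seen.

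**Figure D4:**
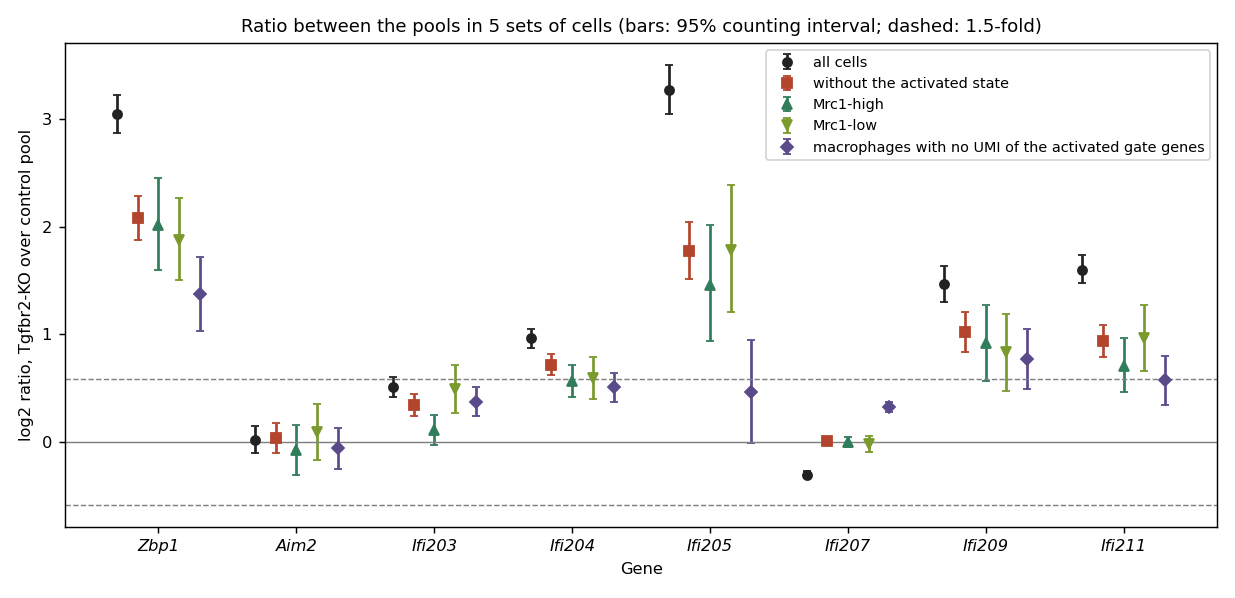
Log2 ratio of Tgfbr2-KO over control for 8 genes in 5 sets of cells, with 95% counting intervals and dashed lines at 1.5-fold. Zbp1 stays above the line in each set, at 8.26-fold over all cells and 2.59-fold in macrophages with no UMI of the activated gate genes, while Ifi205 drops to 1.38-fold there and Aim2 stays at the zero line.

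Since Tgfbr2-KO cells were deeper, shares of cells with a UMI were compared after thinning each cell to 3000 UMIs, which left out 83 Tgfbr2-KO and 80 control cells. Zbp1 was then found in 23.4% (21.8 to 25.1) of Tgfbr2-KO and 3.80% (2.97 to 4.78) of control cells, against 44.2% and 8.76% before thinning. It was found in 47.9% (44.3 to 51.5) of activated Tgfbr2-KO cells. In Mrc1-high cells the share was 8.68% (6.84 to 10.8) in Tgfbr2-KO and 2.68% (1.62 to 4.15) in control cells, and in Mrc1-low cells 10.3% and 3.03%. The Zbp1 difference in macrophages was therefore also one of the number of cells with a UMI at equal depth.

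Ifi205 was found in 13.9% (12.6 to 15.3) of thinned Tgfbr2-KO and 1.49% (0.982 to 2.16) of control cells, against 25.4% and 4.59% before thinning. Ifi207 was found in 85.0% of Mrc1-high Tgfbr2-KO and 83.1% of Mrc1-high control cells, and in 67.1% and 67.6% of Mrc1-low cells. Aim2 was found in 12.9% of Tgfbr2-KO and 12.6% of control cells. At least 3 of the 9 sensors were found together in 30.9% of thinned Tgfbr2-KO and 13.5% of control cells, and in 49.5% of activated Tgfbr2-KO cells. In classical monocyte-gene cells the share was similar, at 48.9% in Tgfbr2-KO and 45.8% in control cells.

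**Figure D5:**
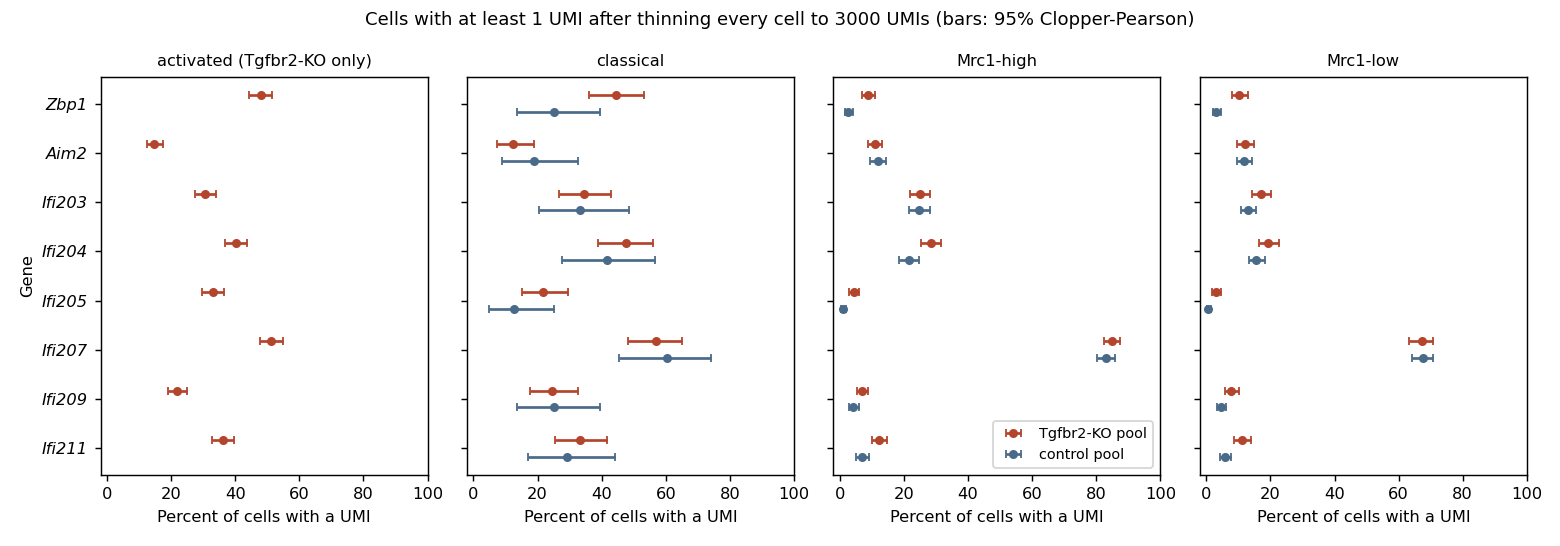
Percent of cells with at least 1 UMI of each of 8 genes after thinning to 3000 UMIs per cell, with Clopper-Pearson intervals, Tgfbr2-KO above control in each row and 4 gated states as panels. Zbp1 is in 47.9% of activated Tgfbr2-KO cells, and in Mrc1-high macrophages in 8.68% of Tgfbr2-KO against 2.68% of control cells, while Ifi207 is near 85.0% in Mrc1-high cells of both pools.

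Free RNA can give UMIs in cells that do not express a gene. In 891940 droplets with 1 to 50 UMIs and no called cell, Zbp1 stood at 92.1 UPM, Ifi205 at 56.4, Aim2 at 38.2 and Ifi207 at 469 UPM. The share of free RNA in cells, limited by the genes with at least 1000 UMIs in those droplets, was at most 7.33% in Tgfbr2-KO and 4.45% in control cells. That bounds the free Zbp1 at 6.75 UPM in Tgfbr2-KO and 4.10 UPM in control cells. After subtracting it, Mrc1-high cells had 33.5 UPM in Tgfbr2-KO and 5.52 UPM in control cells. Under this limit, up to 4.10 of the 9.37 UPM of control Mrc1-high cells could be free RNA. A limit from genes with at least 100 UMIs in those droplets, tried later, was lower, at 0.745% in Tgfbr2-KO and 0.117% in control cells. Both limits were set over a whole pool and do not bound a single state. Structural-gene cells with a Zbp1 UMI numbered 2 of 9 in the Tgfbr2-KO pool and 1 of 3 in the control pool, at medians of 6288 and 11436 UMIs. That is too few cells to set a background share.

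Within the activated Tgfbr2-KO cells, thinned alike, Zbp1 was found more often in cells with Ifi205 than in cells without it. Of 253 cells with Ifi205, 62.5% also had Zbp1 (158), beside 40.7% of the 513 cells without Ifi205 (209). Ifi211 was in 51.8% of cells with Ifi205 and 28.5% of those without. Aim2 showed no such excess of Zbp1, which was in 41.6% of 113 cells with Aim2 and 49.0% of 653 cells without it. Ifi205 was in 31.9% of cells with Aim2 and 33.2% without, but Ifi203 was in 38.1% and 29.2%. Ifi207 was in 51.0% of cells with Ifi205 and 51.5% of those without. It was more frequent in cells with Ifi203 than without (60.7% and 47.2%), and likewise for Ifi204 (58.8% and 46.3%). The same held for Ifi209 (60.1% and 48.8%) and Ifi211 (56.3% and 48.5%), and less so for Zbp1 (53.7% and 49.1%) and Aim2 (54.9% and 50.7%). These cells share 1 library and 1 pool, so the shares are a description.

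Activated Tgfbr2-KO cells with at least 2 UMIs of Nos2, the inducible nitric oxide synthase, numbered 85, and those with none 670, with medians of 16595 and 13429.5 UMIs. Ifi205 stood at 335 UPM (306 to 366) with Nos2 and 189 UPM (180 to 198) without it. Ifi211 stood at 251 and 166 UPM, and Zbp1 at 296 and 255 UPM. Ifi207 went the other way, at 206 UPM (183 to 230) with Nos2 and 321 UPM (310 to 333) without, and Aim2 was at 50.2 and 46.8 UPM. The members thus varied inside the activated state as well as between states.

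The other genes of the locus were also higher in the Tgfbr2-KO pool. Mndal had 158 UPM in Tgfbr2-KO and 93.4 UPM in control cells, 1.69-fold higher. Ifi206 had 22.0 UPM in Tgfbr2-KO and 3.74 UPM in control cells, 5.87-fold higher, and Ifi213 had 30.3 and 5.22 UPM, 5.82-fold higher. In Mrc1-high cells Ifi206 had 118 UMIs in Tgfbr2-KO and 15 UMIs in control cells. Ifi208 (125 and 17 UMIs) and Ifi214 (25 and 1 UMIs) were not counted. So of the 10 counted genes of the locus, Aim2, Ifi203 and Ifi207 were within 1.5-fold between the pools. The others were at least 1.5-fold higher in the Tgfbr2-KO pool, against 10.4% of all counted genes. Ifi206 and Ifi213 were counted through the Tgfbr2-KO level alone, so this tally is no more than a description.

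Partners of Zbp1 in cell death differed less evenly. Of 12 counted, 4 reached 1.5-fold higher in the Tgfbr2-KO pool and 2 were lower by as much, against 10.4% and 6.81% of all counted genes, with a median log2 ratio of 0.10. Mlkl and Ripk3 were among those counted through the Tgfbr2-KO level alone. Without the activated state 2 of 11 were higher and 0 lower, against 6.72% and 3.64%. Mlkl, the executor of necroptosis, had 10.8 UPM in Tgfbr2-KO and 2.21 UPM in control cells, 4.91-fold higher. Ripk3, the kinase that ZBP1 engages, had 21.7 UPM in Tgfbr2-KO and 9.02 UPM in control cells, 2.41-fold higher, and 1.84-fold higher without the activated state. Cflar, an inhibitor of caspase-8, had 284 UPM in Tgfbr2-KO and 488 UPM in control cells, and Tnfaip3, a brake on NF-kB signalling, had 392 and 648 UPM. Ripk1 and Casp8 stood at ratios of 1.14 and 0.965.

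Among inflammasome partners of Aim2, 3 of 13 counted reached 1.5-fold higher in the Tgfbr2-KO pool and 1 was lower by as much, against 10.4% and 6.81% of all counted genes, with a median log2 ratio of 0.02. Without the activated state these counts were 1 (Pycard) and 1 (Nlrp3), near the 6.72% and 3.64% of all counted genes. Pycard, the adaptor ASC, had 232 UPM in Tgfbr2-KO and 116 UPM in control cells, and was 1.61-fold higher in Mrc1-high Tgfbr2-KO cells. The pore-forming Gsdmd had 61.6 UPM in Tgfbr2-KO and 32.0 UPM in control cells, 1.92-fold higher. Casp1 had 69.7 UPM in Tgfbr2-KO and 45.1 UPM in control cells, 1.54-fold higher. Nlrp3, the sensor of another inflammasome, had 400 UPM in Tgfbr2-KO and 791 UPM in control cells, a log2 ratio of -0.99. The adaptor was thus higher while the DNA sensor Aim2 was level.

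Of 21 counted genes for other DNA and RNA sensors and their adaptors, 6 reached 1.5-fold higher in the Tgfbr2-KO pool and 0 were lower by as much, against 10.4% and 6.81% of all counted genes, with a median log2 ratio of 0.22. The count higher was 4 of 21 without the activated state, against 6.72% of counted genes. It was 3 of 21 in Mrc1-high cells, against 6.43%, and the median log2 ratio there was -0.02. Dhx58 was counted through the Tgfbr2-KO level alone. Dhx58 (LGP2), a helper of the RNA helicase sensors, was 3.45-fold and the helicase Ddx60 2.28-fold higher. Tlr7, the endosomal receptor for single-stranded RNA, had 46.0 UPM in Tgfbr2-KO and 67.7 UPM in control cells, and Ifih1 (MDA5) had 192 and 276 UPM. Cgas, the DNA sensor upstream of STING, had 12.7 UPM in Tgfbr2-KO and 13.8 UPM in control cells, while Tmem173 (STING) was 1.89-fold higher.

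Of 12 counted genes for the removal or editing of nucleic acid, 2 reached 1.5-fold higher over all cells and 0 were lower by as much. That is near the 10.4% and 6.81% of all counted genes, and the median log2 ratio was 0.39. Without the activated state 2 of 12 were higher, against 6.72% of counted genes. In Mrc1-high cells 5 of 12 were higher, against 6.43%, and in Mrc1-low cells 2 of 12, against 5.73%. The values that follow are over all cells. Dnase1l3, a secreted DNase, had 155 UPM in Tgfbr2-KO and 30.3 UPM in control cells, 5.11-fold higher. Samhd1, which breaks down deoxynucleotides, had 512 UPM in Tgfbr2-KO and 133 UPM in control cells, 3.85-fold higher. Pld3, a lysosomal exonuclease, stood at a ratio of 0.970 and Rnaseh2c at 1.02. All 10 interferon response genes taken for reference were higher, with a median log2 ratio of 2.03, led by Gbp2 (15.5-fold). Isg15 (3.06-fold) and Irf9 (2.07-fold) were among the lowest 3 of them.

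Over 11 groups of cells (gated state by pool, at least 50 cells), the genes most like each member in log2 UPM were named from 6902 candidates. These points share 1 library, so Pearson's r is a description. Zbp1 was nearest to Ifi47 (r = 0.989), Rtp4, Psmg4, Nmi and Phf11d. Ifi209 was nearest to Ifi35 (r = 0.983) and Sp110, and Ifi211 to Sp110 (r = 0.971) and Rtp4. Ifi205 was nearest to Pycard (r = 0.977), Ifi204 to Trim30a (r = 0.963), Ifi203 to Trim12c (r = 0.918) and Ifi207 to Batf (r = 0.905). Aim2 was nearest to Arglu1 (r = 0.973) and Dnttip2. Among members, Ifi209 and Ifi211 were most alike (r = 0.98), Zbp1 had r = 0.95 with each of them and 0.09 with Aim2, and Ifi207 had r = -0.63 with Ifi205.

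Markers of other cell types were low in both pools but not equal. The 6 T or NK cell markers summed to 4.43 UPM in Tgfbr2-KO and 0.491 UPM in control cells, where Nkg7, Ncr1 and Gzma were at 0. The 6 neutrophil markers summed to 139 UPM in Tgfbr2-KO and 55.5 UPM in control cells, and the 6 dendritic cell markers to 91.0 and 102 UPM. In activated Tgfbr2-KO cells, where Zbp1 and Ifi205 were highest, the T or NK markers summed to 1.66 UPM and the neutrophil markers to 66.0 UPM, lower than over the whole Tgfbr2-KO pool. The dendritic cell markers summed to 122 UPM there, higher than over the whole Tgfbr2-KO pool, and the alveolar macrophage markers to 30.7 UPM, about level with it. The part of these cell types in the sensors' levels was not tested. Alveolar macrophage markers summed to 30.5 UPM in Tgfbr2-KO and 53.3 UPM in control cells.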

How the data were processed

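The authors deposited 1 matrix of whole-number UMI counts per gene and barcode, not filtered to cells (1172636 barcodes), made with Cell Ranger 8.0.0 per the file headers. The notes on processing from the submitters list Seurat 5.1.0, Cell Ranger 8.0 and the build GRCm38. The annotation version, and whether intron reads were counted, are not given in the sources used here. Per the file headers, the hashtag table holds the posterior probability of each state as a fraction. Its hashtag columns in the deposited file are log10 values of the hashtag count plus 1, within 8.9e-16.

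Of 4887 called cells, those assigned to B0303 (Tgfbr2-KO, 2738) or B0301 (control, 1933) were kept at 1000 UMIs, 500 genes and at most 10% mitochondrial UMIs. The 96 hashtag multiplets were left out, no doublet caller was run, and doublets within a pool remain. No barcode was listed more than once (0). Cells were gated on summed marker UMIs per 10000, in the order structural, proliferating, activated, C1q-low, Fn1-high, then Mrc1-high or Mrc1-low. Gate thresholds were set after the distributions of the gate genes had been seen. States were compared with at least 50 cells in both pools, and others are given as values. Ratios have conditional binomial intervals, levels Poisson intervals and shares Clopper-Pearson intervals, and a ratio against 0 UMIs used 3 counts in their place. A gene was called at 1.5-fold. Named genes are the members, the extremes and described genes of each further list, and the 5 genes most like each member with at least 500 UMIs. Some genes of the lists are not reported here. Members, lists and the locus were chosen with earlier results of these data known. The script was tested on simulated pools. Python 3.11.15, numpy 2.4.6, scipy 1.17.1, pandas 2.3.3 and Biopython 1.88 were used. Alternatives covered the cell filter, hashtag probability, depth, scaling, free RNA, cell states, gates, fold threshold and filter on low counts.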

Additional observations from a re-analysis of the deposited data

How the results depend on the processing

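The count of 5 members at least 1.5-fold higher over all cells held under no cell filter and under a stricter one, at a hashtag probability of at least 0.99, after thinning, with median-ratio scaling, with either free RNA limit, without the activated state and with states weighted as in the control pool. It was 4 at 2-fold, 3 of 5 when at least 100 UPM were required, and 2 of 7 in macrophages with no UMI of the activated gate, which was added after the data had been seen. Counted genes at that fold numbered 776, against 501 without the activated state, 382 with weighted states, 304 in those macrophages, 295 at 2-fold, 2242 of 13407 with at least 10 UMIs and 198 of 1736 with at least 100 UPM. The log2 ratio of Zbp1, 3.05, was 3.42 with free RNA subtracted, 2.08 without the activated state, 1.73 with weighted states and 1.37 in those macrophages. The cause of these shifts in count and ratio was not tested. A free RNA limit from genes with at least 100 UMIs in empty droplets, tried after the first, was 0.745% in Tgfbr2-KO and 0.117% in control cells, set by Iglc1, and left Zbp1 at 3.06. Ifi202b, at -1.98 over all cells, reversed to 1.36 in those macrophages, on 13 and 7 UMIs. Ifi207 ranged from -0.39 to 0.33 over the settings, and Aim2 from -0.07 to 0.05. Within Mrc1-low cells, doubled gate thresholds gave log2 ratios of 2.40 for Zbp1 and 2.58 for Ifi205. Leaving out a replicate was not possible, with 1 pool per genotype. No paired analysis was possible because there is 1 pool per genotype.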
